A study of Homo sapiens with 6 samples.

Results

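MACS2 summits that lay in genes without any MeTDiff peak were examined in an m1G precipitation experiment. They were chosen by position: an autosomal summit inside exactly 1 RefSeq gene span (small RNA genes aside), with no block of a MeTDiff peak overlapping that span by 1 bp or more. The rule was met by 212 of the 6264 summits of the series (3.38%, 95% Wilson interval 2.96 to 3.86), in 196 genes. Among the 5050 autosomal summits in exactly 1 gene span they made up 4.2%, and among the 3149 genes of those summits 6.22%. Absence of a MeTDiff peak is thus what selected these positions, and it is not a result. The remaining 4838 summits, in 2953 genes whose span was overlapped by a MeTDiff block, are given only to show where the selected summits differ. No test was run between the sets, because the score and the MeTDiff peaks come from the same precipitates and inputs.

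The study used PANC-1, an established human cell line from a pancreatic ductal adenocarcinoma, given siRNA by reverse transfection. Cells labelled WT control and cells with knockdown of TRMT5 for 4 days each gave 1 input library and 2 libraries of polyA+ RNA precipitated with an anti-m1G antibody, 6 libraries in all. Neither list separates these groups, so knockdown and control could not be compared, and no value has a replicate error. The design is 1 cell line, and whether the 2 precipitates of a condition came from separate cultures is not given in the sources used here. Of 8 ductal and epithelial marker genes, 6 had a MeTDiff block and 4 a summit (KRT8, KRT18, KRT19 and SOX9). None of 4 endocrine markers had either, 1 of 5 acinar markers had a MeTDiff block and no summit, 1 of 3 immune markers (CD68) had a MeTDiff block, and 1 of 3 stromal markers (COL1A1) had both. None of these markers was among the 196 genes.

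N1-methylguanosine (m1G) is a guanosine with a methyl group on the face that pairs with cytidine, and TRMT5 places it next to the anticodon of tRNAs. In antibody precipitation, RNA is broken into fragments, fragments bound by the antibody are sequenced beside the input, and places with an excess of precipitated reads are called as peaks. MACS2 is a general caller that searches along the genome, while MeTDiff scans annotated transcripts. The score given here is the one MACS2 attached to each summit, on a −log10 scale of probability on which higher means less likely by chance; whether it is a p-value or a corrected q-value was not stated. Summits are 1 bp wide, carry no strand, and are the authors' values. TRMT5 and NES, which the title of the study names, both had MeTDiff blocks and so are not among the 196 genes.

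Sequence could be shown for summits inside the promoter windows of RefSeq (GRCh38.p14), which run from 250 bases before to 50 after a gene's start. These windows held 20 of the 144 selected summits in genes with a known strand (13.9%, interval 9.17 to 20.5). They held 277 of the 3883 other summits with a known strand. In 15 of the 20 the summit lay after the start (75%, interval 53.1 to 88.8), and in 229 of the 277 (82.7%, interval 77.8 to 86.7). Every summit of both sets had to lie inside its gene span. A summit could thus precede the start only where the span began upstream of that start. These shares are therefore largely set by the rule and are given only as a description. The 10 of the 15 with the highest scores are shown because they place the summit at the very start of the transcript. Each run has 30 bases on the strand of the gene, 5′ to 3′, the summit is base 16, and capitals mark bases from the gene's start onward.
YBX1 (chr1:42682423-42682452, plus strand): CGCTAGTTCGATCGGTAGCGGGAGCGGAGA
LOC107984341 (chr11:67118326-67118355, minus strand): aacaggaGTAGCATGTCTGTCCTGGGCTCG
TRAPPC1 (chr17:7931954-7931983, minus strand): TGGAAACCGGAAGTAACTCTTGACGGGCAC
TTC17 (chr11:43358912-43358941, plus strand): tagcttccGCTTCCGGTGTGAGCGGCCCGG
NT5C3A (chr7:33062758-33062787, minus strand): tgggatcccgcGCTTCCGAGACTCGCAGTC
LSM12 (chr17:44066652-44066681, minus strand): ctccgtgcgcGCCGTCGCGTCGCGGCGCTC
TPRG1L (chr1:3625012-3625041, plus strand): ggtGGCTGCGGCGACGGCGGTCGCGTCGGC
LOC105378561 (chr10:130136331-130136360, minus strand): GGAGCTGAGCGGCTGCGCGAGGGAAAGCCC
STK35 (chr20:2101838-2101867, plus strand): CAGGACCGGGCGGTGCAGGGCTCACTCGGC
IPO11 (chr5:62412763-62412792, plus strand): GTCGTTTGGAGCTGCGACGCCAAACATGGC

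The YBX1 summit, at base 21 of the gene, had the highest score of these, 25.5. YBX1 encodes a cold-shock domain protein that binds mRNA. In the long noncoding RNA gene LOC107984341 the summit was at base 9 (score 23.5), and in TRAPPC1, which encodes a subunit of a vesicle-tethering complex, at base 32 (16.8). TTC17 (16.4), the nucleotidase gene NT5C3A (15.5) and the RNA-binding protein gene LSM12 (13.4) had summits at bases 8, 5 and 6. For LSM12 the start is that of the promoter table, and the full gene span began 921 bp upstream of the summit. The other scores were 11.99 for TPRG1L, 11.6 for LOC105378561, 9.50 for the kinase gene STK35 and 9.43 for the nuclear import receptor gene IPO11. The runs were rich in G and C. Over the 16 selected summits whose 30 bases lay wholly inside a window, the median GC content was 73.3%, the same as over 220 other summits, and the median G content was 36.7% against 40.0%. The summit base itself was G in 7 of 20 windows (interval in percent 18.1 to 56.7) and in 117 of 277 of the other summits (42.2%, interval 36.6 to 48.1). RNA was fragmented to lengths well above 30 bases, so the summit base need not be a modified base. The hexamer GGGCGG, searched on both strands, was in 71.1% of the promoter windows of the selected genes (96 of 135), in 77.7% of those of the other genes with a summit, and in 44.6% of all 27305 windows. TATAAA was in 7.41%, 4.27% and 11.95% of the same sets.

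By class of gene, 163 of the 212 summits lay in protein-coding spans (76.9%, interval 70.8 to 82.1), 24 in long noncoding RNA (lncRNA) spans, 19 in pseudogene spans and 6 in spans of other RNAs (rRNA, 7SL RNA and the RNA of RNase MRP). Among the other 4838 summits 97.8% were in protein-coding spans (interval 97.4 to 98.2), 67 in lncRNA spans, 36 in pseudogene spans and 2 in other RNA spans. Read the other way, 3.33% of the summits in protein-coding spans were in a gene without a MeTDiff peak, against 26.4% of 91 in lncRNA spans (interval 18.4 to 36.3), 34.5% of 55 in pseudogene spans (interval 23.4 to 47.7) and 6 of 8 in other RNA spans. The noncoding classes also hold fewer MeTDiff blocks in general: 38.8% of 19122 autosomal protein-coding genes had one, and 16.02% of all 53211 autosomal genes other than small RNA genes. MeTDiff scans annotated transcripts, and the annotation used for these peaks is not known here. Whether each noncoding gene was in it was not tested.

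**Figure D1:**
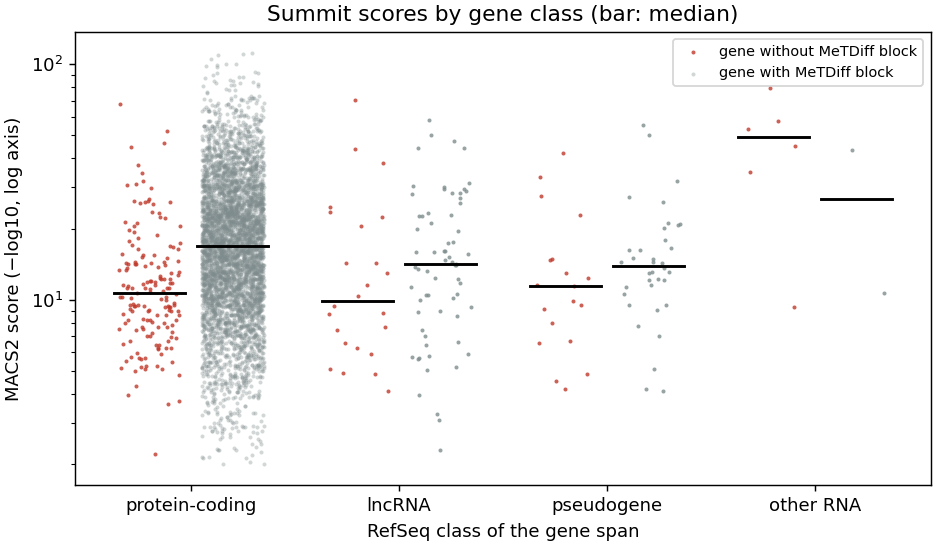
MACS2 score of each summit (log axis) by RefSeq class of the gene span that holds it, in genes without (red) and with (grey) a MeTDiff block; black bars are medians. Median scores of the red points were 10.7 in protein-coding spans, 9.90 in lncRNA spans, 11.5 in pseudogene spans and 49.0 in the 6 summits of other RNAs, and the grey medians of the 3 larger classes were 16.9, 14.1 and 13.98.

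The highest score belonged to an rRNA gene. RNA45SN1, a copy of the gene for the precursor of 18S, 5.8S and 28S ribosomal RNA, held summits of 79.6 and 52.9 on chromosome 21 (8434990 and 8434125), 865 bp apart. Its near-identical neighbours RNA45SN2 and RNA45SN3 had 1 summit each, of 45.1 and 9.35, and LOC110467529, annotated as a pseudogene on the same chromosome, had 42.1. A further summit of 12.4 was in the 18S pseudogene RNA18SP on chromosome 22. How the authors treated reads that fit several such copies is not given in the sources used here, so the split among copies is uncertain. The precipitated RNA was polyA+, and how much rRNA remained in it is not known here.

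RNAs that are short and structured were also present. RN7SL3 encodes 7SL, the RNA of the signal recognition particle, which directs new proteins to the endoplasmic reticulum. Its summit had a score of 57.3 (chromosome 14, 49853882), and the MeTDiff block nearest to it, 8687 bp away, was in the overlapping spans of LOC105378179 and another 7SL gene, RN7SL2. A 7SL pseudogene, RN7SL471P, had a summit of 27.6. RMRP, the RNA of the RNase MRP enzyme that acts on precursor rRNA, had a summit of 35.04 only 17 bp from an end of its 270 bp span (chromosome 9, 35658002). 7SL has many near-identical copies, and the assignment to RN7SL3 is uncertain for the same reason as above. How much 7SL or RMRP RNA remained in the polyA+ RNA is not known either.

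Of the 20 genes with the highest scores, down to 26.3, 10 were protein-coding, 3 lncRNA, 3 pseudogenes and 4 other RNA genes. HFM1, a DNA helicase gene of meiosis, came first among protein-coding genes. Its summit of 67.6 lay 20473 bp from the 5′ end of a 147242 bp span (chromosome 1, 91387534). SLCO5A1, of the organic anion transporter family, had a summit of 51.9. SULT4A1, which encodes a sulfotransferase-like protein of the brain, had 2 summits of 46.2 and 34.7, 438 bp apart and from the same MACS2 peak. The summits of these 3 genes lay 11972 bp or more from either end of the span.

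FSCN1 had the most summits of any gene without a MeTDiff peak. It encodes fascin, which bundles actin filaments in the protrusions of moving cells. Its 4 summits, each from a MACS2 peak of its own, had scores of 44.5, 31.1, 18.3 and 37.6 at 332, 10385, 12448 and 13101 bp from the low-coordinate end of a 13840 bp span on chromosome 7. Thus 1 summit lay close to an end and the other 3 within 3454 bp of the opposite end. RALGPS1, a guanine nucleotide exchange factor gene for Ral GTPases, was the only gene with 3. These scored 12.3, 9.49 and 7.50 and were spread over 240468 bp. A further 11 genes had 2 summits each, and 183 of the 196 genes had 1 (93.4%, interval 89.0 to 96.1), against 66.4% of the other genes (interval 64.7 to 68.1), where up to 19 summits fell in a gene.

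**Figure D2:**
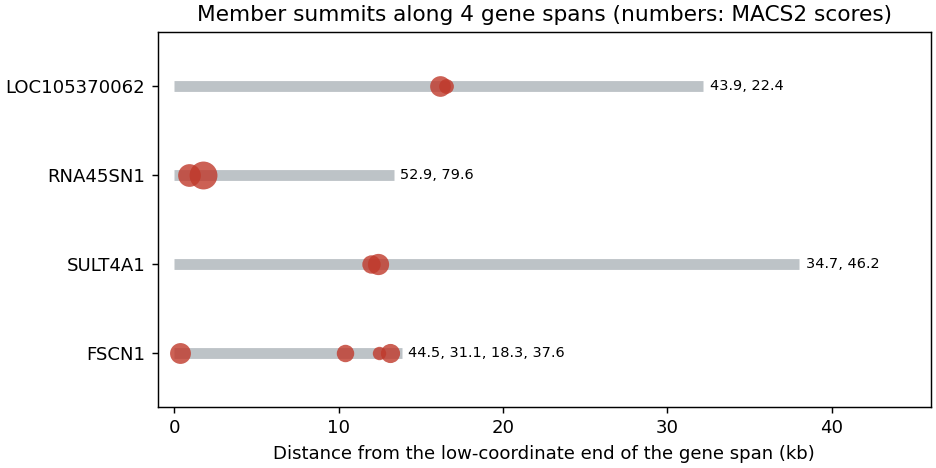
Member summits (red discs, area proportional to score) along the gene spans (grey bars) of FSCN1, SULT4A1, RNA45SN1 and LOC105370062; the x axis is the distance in kb from the low-coordinate end, and the numbers are the MACS2 scores from left to right. FSCN1 had scores at both sides of its span, whereas the 2 summits of each other span were 362 to 865 bp apart.

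Family counts here and below are of genes in lists built from gene symbols, which leave out some genes of a class. Among genes of RNA metabolism and protein synthesis, EIF4B scored highest in its family, with 29.99. It encodes an initiation factor that assists the unwinding of mRNA at the ribosome. EIF3I, a subunit of the initiation complex eIF3, had 2 summits of 13.9 and 12.2, and these were 2 of 28 translation factor and poly(A)-binding protein genes with a summit (7.14%, against 6.22% of all genes with one). In the same way 2 of 31 ribosomal protein genes (6.45%) were without a MeTDiff peak, RPL7A (12.98) and RPLP1 (10.8), which encode proteins of the large subunit. MRPL36, a mitochondrial ribosomal protein gene, had 26.3, and the threonyl-tRNA synthetase gene TARS1 had 19.5. The splicing and RNA-binding list gave 5 of 46 genes (10.9%). LSM14B (31.9) and LSM12 both have LSm-type domains. DHX32 (26.9) and DDX28 (9.43) are of the RNA helicase families, and HNRNPA3 (10.3) binds nascent transcripts. None of the 20 listed tRNA and rRNA modification enzyme genes with a summit was without a MeTDiff peak. The nucleolar chaperone gene NPM1, in no list, had 12.3.

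Genes of signalling and of the cell surface were also present. Of 49 listed growth factor and receptor genes with a summit 3 lacked a MeTDiff peak (6.12%, against 6.22% of all genes with a summit). These were ERBB3 (13.4), a receptor of the epidermal growth factor receptor family, FGF12 (10.2), of the fibroblast growth factor family, and the Wnt receptor gene FZD6 (8.62). The cytokine list gave 2 of 22 (9.09%), IL11 (22.5), an interleukin of the IL-6 family, and TNFRSF10A (13.7), a death receptor for TRAIL. ITGB4 (8.93), the integrin beta subunit of hemidesmosomes, was the only one of the 40 listed adhesion and matrix genes (2.5%). Of 66 listed protein kinase and kinase subunit genes 4 were included (6.06%). Among them were STK35, with summits of 10.1 and 9.50, and the regulatory subunit genes PRKAR2A (7.29) and PRKAR2B (6.24) of protein kinase A. The kinase genes LMTK2, TTBK2 and TLK2 also lacked a MeTDiff peak but were in no list. NGFR (23.3), the low-affinity nerve growth factor receptor gene, and INSR (3.96), the insulin receptor gene, belonged to no list. The list of small GTPases and their regulators gave 4 of 55 (7.27%), among which TBC1D4 scored 10.2 and DENND1B 5.66. The Arf regulator genes ARAP3, ASAP1 and ADAP1 also lacked a MeTDiff peak but were in no list.

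Zinc finger genes, which encode a large family of DNA-binding proteins, gave 5 of 62 (8.06%), against 6.22% of all genes with a summit. They ran from ZNF212 (11.6) to ZNF25, whose 2 summits scored 5.71 and 4.97 and were 261 bp apart. Chromatin genes gave 3 of 51 (5.88%): DNMT3B (17.8), a de novo DNA methyltransferase gene, the histone demethylase gene KDM5A (14.2) and ARID4B (11.2). XRCC5 (17.1), which encodes the Ku80 protein of DNA end joining, and NCAPG2 (9.05), a condensin subunit gene, were 2 of 39 cell cycle, replication and repair genes (5.13%). RPA2, a subunit of the single-strand DNA binding protein of replication, had 16.5 and was in no list. TOB1, an antiproliferative gene, had summits of 16.9 and 10.9, 478 bp apart.

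Of the 32 lists of protein families, 24 held at least 1 such gene and 8 held none. The 8 were tRNA and rRNA modification enzymes, ion channels and pumps (0 of 29), mitochondrial import and carriers (0 of 19), proteasome subunits (0 of 15), actin, myosin and tubulin genes (0 of 31), intermediate filaments (0 of 8), chaperones (0 of 30) and lipid metabolism genes (0 of 36). With a background of 6.22% lists of this size hold few such genes, and the lists, built from gene symbols, were not tested. They do not hold every gene of a class. For example RYR2, a calcium channel gene with a score of 15.4, was among the 196 genes but in no list. A count of 0 therefore does not show that a class was absent. Genes of unassigned function (TMEM, FAM, CCDC and similar names) gave 9 of 97 (9.28%), with FAM131C (30.6) and C11orf68 (23.5) highest. The lists covered 62 of the 150 protein-coding genes, and 88 were in none. Among these were NT5M (26.3), a mitochondrial nucleotidase gene, CHPF (26.0), which extends chondroitin chains, the calpain subunit gene CAPNS1 (26.0) and TM4SF1 (25.9), a membrane protein gene of the transmembrane-4 family.

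The lncRNA summits were 24 in 23 genes. LOC107984507 had the highest, 70.4 (chromosome 12, 1530508), in a span of 4470 bp. LOC105370062 had 2 from the same MACS2 peak, 43.9 and 22.4, and STXBP5-AS1, which lies antisense to a syntaxin-binding gene, had 38.2 at 710 bp from its 5′ end. FKBP1A-SDCBP2, a readthrough transcript of neighbouring genes, had 24.8, and CRIM1-DT, a divergent transcript, 20.5. LOC100129455 and LOC124903058 had 14.4 each. Of 47 lncRNA genes with a summit and with antisense, divergent, LINC or host gene names, 10 were without a MeTDiff peak. So were 15 of 33 genes of any class that are named only by a LOC number, against 6.22% of all genes with a summit. Those 15 include the pseudogene LOC110467529 and the protein-coding genes LOC105373989 and LOC112268044.

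Pseudogenes held 19 summits in 18 spans. ACTBP2, a processed copy of the beta-actin gene, had a score of 33.3 (chromosome 5, 77784932), while ACTB itself held 3 summits of up to 78.5 and 2 MeTDiff peaks. HNRNPKP4 had 22.9, and HNRNPK 37.0 with 2 MeTDiff peaks of up to 22.1-fold enrichment over input. EIF4BP3 (4.86) was the exception in which the namesake, EIF4B, also had a summit and no MeTDiff peak. For 12 pseudogenes with a recognisable namesake, chosen after the members were seen, 7 namesakes had a summit, 10 had a MeTDiff peak and 1, FRG1, had neither. FRG1BP itself had summits of 6.72 and 4.54. Of all 19122 autosomal protein-coding genes 38.8% had a MeTDiff block. The namesakes were not matched to those genes for expression, which is not known here. Reads from a parent gene and from its copies can be hard to tell apart, and their part in these summits was not tested. Among the transcribed pseudogenes the highest scores were those of DUXAP9 (14.9), SMPD4BP (12.98) and DUXAP8 (11.6).

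Scores were low in most of these genes. Their median was 10.8 (quartiles 7.65 and 15.6, range 2.21 to 79.6), beside 16.8 for the other summits (quartiles 10.5 and 25.8, range 2.01 to 112). A score under 10 was held by 97 of 212 (45.8%, interval 39.2 to 52.5) and by 22.4% of the others (interval 21.3 to 23.6), and a score of 20 or more by 41 (19.3%, interval 14.6 to 25.2) and 40.0% (interval 38.6 to 41.3). The difference was also present among genes with 1 summit, where the medians were 10.4 and 16.4. Scores overlapped over nearly their whole range. At the lower end, HHIPL1 had 2.21, TMCC2 3.63, the phosphatase gene PTPN12 3.73 and INSR 3.96. Many scores recurred: 121 of the 212 (57.1%, interval 50.3 to 63.6) were equal, to 5 decimals, to that of another summit in the list. The share among the others was 34.95% (interval 33.6 to 36.3). ZC3H12A, IPO11 and DDX28, for example, all had 9.43. Most of the equal scores among the 212 lay under 20, and the sets were not compared at like scores.

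**Figure D3:**
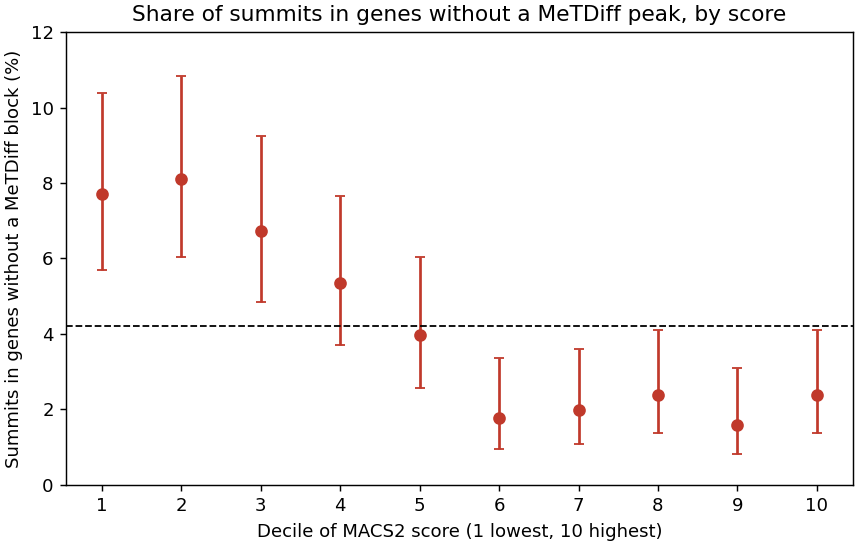
Share of autosomal single-gene summits that lay in a gene without a MeTDiff block, in percent, by decile of the MACS2 score over 5050 summits; bars are 95% Wilson intervals and the dashed line is the share over all, 4.2%. The share was 7.72% and 8.12% in the 2 lowest deciles and between 1.58% and 2.38% in the 5 highest.

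The share in genes without a MeTDiff peak fell from 8.08% in the lowest quartile of scores (102 of 1263, interval 6.70 to 9.71) to 1.90% in the third (24 of 1262) and was 2.14% in the highest (27 of 1263, interval 1.47 to 3.09). The highest decile, from 37.6 upward, still held 12, which lay in RNA45SN1, RNA45SN2, LOC107984507, HFM1, RN7SL3, SLCO5A1, SULT4A1, FSCN1, LOC105370062, LOC110467529 and STXBP5-AS1. By chromosome the share ran from 1.36% on chromosome 19 (9 of 664, interval 0.715 to 2.56) and 1.75% on chromosome 11 (7 of 399) to 11.5% on chromosome 21 (7 of 61, interval 5.67 to 21.8), where 5 of the 7 were in RNA45SN1, RNA45SN2, RNA45SN3 and LOC110467529, and 13.5% on chromosome 13 (5 of 37, interval 5.91 to 28.0).

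Position in the gene could be read for the 144 summits in genes with a strand in the RefSeq promoter table. Of these, 50 summits in 48 genes were at most 500 bp from the 5′ end (34.7%, interval 27.4 to 42.8) and 6 at most 500 bp from the 3′ end (4.17%, interval 1.92 to 8.79). The first 20% of the span held 76 of the 144 (52.8%, interval 44.7 to 60.8) and the last 20% held 24 (16.7%, interval 11.5 to 23.6). Among 3883 other summits with a strand, 22.7% were within 500 bp of the 5′ end (interval 21.4 to 24.1) and 4.07% within 500 bp of the 3′ end. The first 20% of the span held 32.7% of them (interval 31.2 to 34.2) and the last 20% held 29.7% (interval 28.3 to 31.1). Restricting both sets to genes with 1 summit gave 5′ shares with overlapping intervals: 34.6% of 127 without a MeTDiff peak (interval 26.9 to 43.3) and 37.6% of 1589 with one (interval 35.2 to 40.0). At 1000 bp these shares were 46.5% and 43.5%, so the genes with 1 summit showed no difference of steady direction.

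**Figure D4:**
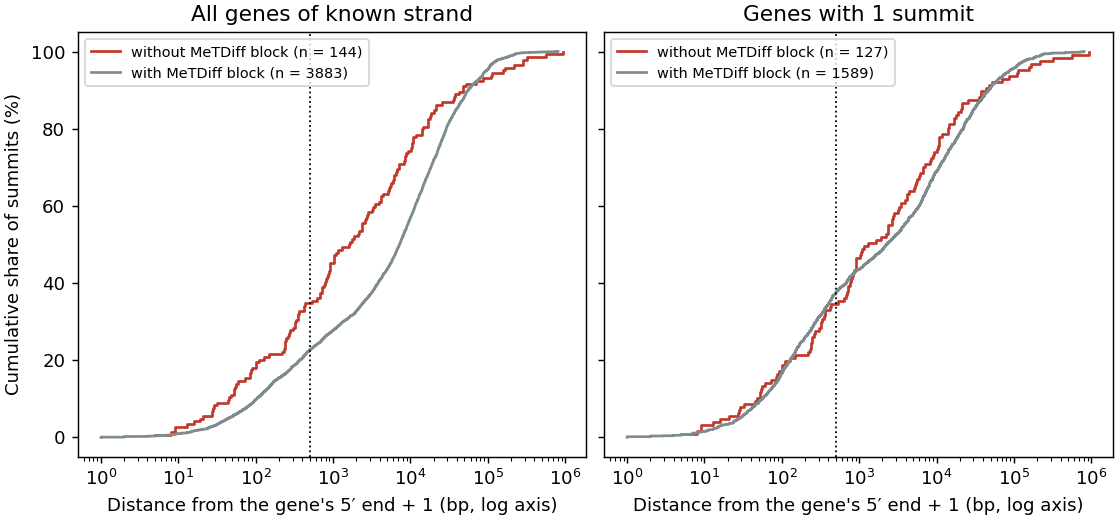
Cumulative share of summits, in percent, by distance from the 5′ end of the gene plus 1 bp (log axis), for genes without (red) and with (grey) a MeTDiff block; left, all genes of known strand, right, genes with exactly 1 summit; the dotted line marks 500 bp. At 500 bp the curves stood at 34.7% and 22.7% on the left and at 34.6% and 37.6% on the right.

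In genes without a MeTDiff peak, scores near the 5′ end had a median of 9.42 (quartiles 6.90 and 14.70) and those elsewhere 11.02 (quartiles 8.05 and 14.27), and these ranges largely overlapped. In the other genes the medians were 18.8 near the 5′ end and 16.3 elsewhere. The 5 highest near a 5′ end were DHX32 (8 bp from it), MRPL36 (59 bp), NT5M (242 bp), YBX1 (20 bp) and FKBP1A-SDCBP2 (72 bp), all with scores given above. IL11 had its summit at 427 bp and CDK2AP1 (18.8), which encodes a cell cycle regulator, had its summit at 239 bp. C2orf72 had both of its summits there, 84 and 425 bp from the end, with scores of 9.35 and 19.8. The 6 near a 3′ end were CHPF, RPL7A, NDUFB10 (12.3), a respiratory complex I subunit gene, LCNL1 (11.7), SLC22A31 (5.43) and RNF224 (4.81), at 478, 403, 245, 384, 419 and 481 bp from it. None of 144 was within 200 bp of the 3′ end (Wilson interval 0 to 2.60%), and the limit that a count of 0 allows, taken as 3 counts of the total, was 2.08%. The other summits were almost absent there too, with 2 of 3883 (0.0515%, interval 0.0141 to 0.188). The absence is thus not particular to the selected genes. Deep interior summits came from very long spans: RYR2, a calcium channel gene, had 15.4 at 560933 bp from its 5′ end, and CAMTA1, with the longest span of 984253 bp, had 8.93 at 946926 bp. For the 68 summits with no strand, 18 lay within 500 bp of either end (26.5%, interval 17.4 to 38.0).

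The rule bars any MeTDiff block from the gene span, so the distance from a summit to the nearest block is largely set by the rule and is given only as a description. Its median was 74060 bp, and 37 of 212 had a block within 10000 bp (17.5%, interval 12.9 to 23.1). A block within 1000 bp, outside the gene span, was present for 9 (4.25%, interval 2.25 to 7.87), and 6 of those belonged to the 50 summits near a 5′ end. In all 6 the block was on the strand opposite to that of the gene. MRPL36 is an example: its summit lay 73 bp from a block of 9.05-fold enrichment in the span of NDUFS6, a complex I subunit gene, only 14 bp beyond the MRPL36 span. LOC105378561 lay 96 bp from a block of 8.50-fold in GLRX3, TRAPPC1 299 bp from one of 4.69-fold in CNTROB, CCDC92 454 bp from one of 12.7-fold in the spans of ZNF664 and ZNF664-RFLNA, ZNF496-DT 811 bp from one of 5.10-fold in ZNF496, and LOC107984341 923 bp from one of 17.5-fold in KDM2A. The remaining 3, in genes without a strand in the table, were CRIM1-DT (330 bp, CRIM1, 26.6-fold), RMRP (385 bp, CCDC107, 2.29-fold) and FBXL6 (515 bp, SLC52A2, 47.0-fold). Summits carry no strand, and whether a summit beside such a block belongs to the neighbouring gene was not tested.

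Genes just inside and just outside the rule differed by few bases. Just inside were MRPL36, SRRM2-AS1 (10.4), whose span ended 26 bp from a block of 18.7-fold in SRRM2, and LOC105378561 and SMPD4BP, each 70 bp from a block. Just outside were NQO2-AS1, overlapped over 41 bp by a peak of 5.50-fold, with a summit of 7.47, LOC105376819, over 54 bp (3.17-fold, summit 8.88), and CCDC183, over 57 bp (5.25-fold, summit 6.57).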

How the data were processed

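The submitters' processing notes name the build GRCh38, STAR 2.7.1 and MACS2 2.2.5; settings and the libraries behind each peak call are not given there. The authors deposited 2 headerless peak lists of the whole series: 6264 MACS2 summits (5921 peaks) with a −log10 p-value or q-value, and 18431 MeTDiff peaks with blocks, strand, a p-value, the log10 of the false discovery rate (FDR) and a fold enrichment ratio of precipitate over input; the meaning of these deposited columns was read from their order and values. The lists hold no read counts, so depth is unknown.

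Gene spans and classes came from a RefSeq table (GRCh38.p14), and strand and sequence from its promoter table; 410 summits lay in no span, 647 in several and 157 in 1 span off the autosomes. Spans include introns, and exons and UTRs were not used here. Shares have 95% Wilson intervals, which cover counting error only; summits of a gene are not independent. Members and lists were chosen with earlier results of these data known, and the kinase symbol pattern, some list names and the limit of protein lists to protein-coding genes were set or corrected after the matches were seen. Genes named were those of the 20 highest scores, with 3 or more summits, up to 4 per list and 8 per noncoding class, and up to 12 with a summit in a promoter window; others named, such as those in no list, at the limits of a range or beside a MeTDiff block, were chosen after their values were seen. The selection was tested on simulated data (Python 3.11.15, pandas 2.3.3, SciPy 1.17.1), where 100 of 100 genes without a block were recovered among 3000.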

Additional observations from a re-analysis of the deposited data

How the results depend on the processing

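No paired analysis was possible because the lists carry no libraries, and for the same reason no replicate could be left out. Of 22 alternatives for 5 results, 4 of them chosen after seeing the data, 17 left the value within 1.5 times (counts) or within the 95% interval. The number of summits was 195 with spans widened by 500 bp, 232 with MeTDiff peaks of the gene's own strand only, 213 with small RNA genes as spans, 270 with only MeTDiff peaks of FDR 0.01 or less, and 212 with whole MeTDiff peaks. With only summits at or above the median score of the MACS2 list it was 52, of which 69.2% were in protein-coding spans. The share near a 5′ end was 21.5% within 200 bp and 45.1% within 1000 bp, and near a 3′ end 0% within 200 bp, as narrower or wider windows must change it. The median score ranged from 10.5 to 10.8. Depth per library is unknown, so a gene without a MeTDiff peak may have too few reads for a call, and this was not tested. Such a gene may also be missing from the annotation that MeTDiff scanned, which was not tested either.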
